A study of Mus musculus with 2 samples.

Results

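The genes described here encode the catalytic core of Polycomb repressive complex 1 (PRC1) and the subunits that sort it into its variants. They are 10 of the 32228 genes counted: the RING ligases Ring1 and Rnf2, the 6 PCGF genes Bmi1 (also called Pcgf4), Pcgf1, Pcgf2, Pcgf3, Pcgf5 and Pcgf6, and the adaptors Rybp and Yaf2. They were chosen by name and role, not by their levels, though earlier results of these data were known. The questions were whether Rnf2 was higher where Ring1 is knocked out by label, and which PCGF gene held most of the PCGF counts in each immune cell class.

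The cells came from the colon lamina propria of C57BL/6 mice aged 8 to 10 weeks by the labels, either WT or Ring1AKO (Ring1A knockout). All had colitis from dextran sulfate sodium (DSS), which injures the colon epithelium. Live CD45+ cells, that is leukocytes, were sorted from pooled mice and made into 1 library for each genotype. Genotype, mice and library therefore cannot be told apart, no test between the libraries was possible, and every interval below is a 95% interval that covers counting error only. Pairs of values are given in the order WT, Ring1AKO.

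PRC1 attaches a single ubiquitin to histone H2A, a mark of repressed genes. RING1 and RNF2 are paralogous E3 ligases, and a complex holds either of them bound to a PCGF protein. Canonical PRC1, which reads the PRC2 mark through CBX proteins, holds BMI1 or PCGF2. PCGF1, PCGF3, PCGF5 and PCGF6 build variant complexes that hold RYBP or YAF2 and no such CBX protein. BMI1 and PCGF2 are not confined to canonical PRC1, so their counts do not measure it alone. In lymphocytes and blood progenitors BMI1 is best known for keeping the Cdkn2a locus silent.

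The matrices held unique molecular identifiers (UMIs), each 1 captured transcript read near its 3′ end, 74414511 in the WT library and 81862096 in the library labelled Ring1AKO. Barcodes with at least 1000 UMIs, at least 500 genes and under 5% mitochondrial UMIs were kept as cells, 6005 and 7918, and 11 barcode sequences occurred in both. Cells were gated on single genes, Cd79a for B cells, Jchain for plasma cells, Cd3e for T cells, Lyz2 for myeloid cells and S100a8 for neutrophils. The gates held 1175 B, 618 plasma, 1519 T, 1053 myeloid and 176 neutrophil cells in the WT library, and 3593, 619, 1620, 452 and 202 in the other. Of 30 further markers of these classes, 29 were highest in their own gate in both libraries, and Prdm1, a plasma cell marker, was highest in myeloid-gated cells. The myeloid gate differed in make-up, with Ccr2 (a monocyte receptor) at 485 and 202 CPM and C1qa (a macrophage complement gene) at 347 and 839 CPM. CPM are the UMIs of a gene per 1000000 UMIs of the same cells. Median UMIs per cell were 4220 and 4345 in the B gate, 27246 and 32879 in the plasma gate, 5850 and 5673 in the T gate, 9538 and 7143 in the myeloid gate and 4496 and 4981.5 in the neutrophil gate. The summed CPM of 8 immediate-early genes (Fos, Jun and others that respond quickly to stimulation) were 4568 and 5214 in B-gated, 3102 and 2297 in plasma-gated, 4793 and 5355 in T-gated and 5127 and 5584 in myeloid-gated cells, and their part in the results was not tested.

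Ring1 (ENSMUSG00000024325) lies on the minus strand of chromosome 17 of GRCm38, chr17:34020792-34024680, and no other annotated gene overlaps it. Rnf2 (ENSMUSG00000026484) lies on the minus strand of chromosome 1, chr1:151458004-151500955, where Gm36527 overlaps on the same strand and Trmt1l on the other. The start windows of both ligase genes are shown as the regulatory sequence of the paralogs compared here, from 250 bases before to 50 bases after the start, taken from RefSeq on GRCm38.p6. They span chr17:34024631-34024930 and chr1:151500942-151501241 on the minus strand, and capitals mark each CG, the dinucleotide that KDM2B of the PCGF1 complex binds when unmethylated.
Ring1: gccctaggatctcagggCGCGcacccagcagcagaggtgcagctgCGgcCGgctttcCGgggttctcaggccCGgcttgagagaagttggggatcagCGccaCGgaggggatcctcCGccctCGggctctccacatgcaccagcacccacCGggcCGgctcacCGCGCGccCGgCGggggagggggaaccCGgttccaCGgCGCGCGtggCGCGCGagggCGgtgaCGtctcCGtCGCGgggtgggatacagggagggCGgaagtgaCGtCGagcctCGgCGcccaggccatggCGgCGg
Rnf2: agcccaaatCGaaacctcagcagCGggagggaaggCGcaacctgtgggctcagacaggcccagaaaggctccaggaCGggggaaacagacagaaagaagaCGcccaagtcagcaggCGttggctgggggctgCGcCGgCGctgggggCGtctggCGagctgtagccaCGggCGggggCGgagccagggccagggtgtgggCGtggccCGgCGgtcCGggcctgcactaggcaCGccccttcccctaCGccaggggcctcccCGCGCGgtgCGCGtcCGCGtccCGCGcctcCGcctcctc
The Ring1 window held 37 CG and the Rnf2 window 30, against a median of 7 over 32851 promoter windows of the same length. As many CG as in the Ring1 window were found in 5.58% of all windows, and as many as in the Rnf2 window in 11.7%. Bmi1 and Pcgf3 had 23 CG each, Pcgf6 had 22, Pcgf2 had 10, and the 3 starts of Pcgf5 had 34, 5 and 35. The 3′ counts do not read these windows.

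Ring1 transcripts were still counted in the library labelled Ring1AKO. All kept cells together held 828 and 816 Ring1 UMIs, or 13.4 and 11.8 CPM. The log2 ratio of Ring1AKO over WT, with 1 UMI added to each sum, was -0.18 (-0.32 to -0.04), and -0.30 (-0.45 to -0.15) with both libraries weighted to the class mix of WT. That mix is by summed UMIs, not by cells, and includes the cells past no gate or past several. Without this weighting, the ratio relative to the median of all genes was -0.033, and with each cell thinned to 2000 UMIs it was 0.071, and both intervals then held 0. Thinning, here and below, leaves out cells with fewer than 2000 UMIs. The labels do not say which stretch was deleted, and a 3′ count does not show a deletion upstream of it, so these counts do not check the label.

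In B-gated cells Ring1 was at 16.8 and 16.0 CPM (110 and 301 UMIs), a log2 ratio of -0.08 (-0.39 to 0.26) whose interval holds 0. In T-gated cells it was at 14.6 and 10.3 CPM (10.1 and 7.35 UMIs per 100 cells), a ratio of -0.49 (-0.85 to -0.14). In plasma-gated cells it was at 11.9 and 8.12 CPM (219 and 160 UMIs), a ratio of -0.55 (-0.86 to -0.25). As counted, both intervals lay below 0. The plasma interval held 0 without immunoglobulin UMIs in the denominator, at -0.27 (-0.58 to 0.03), and the T interval held 0 after thinning to 40 and 35 UMIs, at -0.27 (-0.97 to 0.42). In myeloid-gated cells it was at 11.4 and 8.49 CPM (111 and 29 UMIs), a ratio of -0.38 (-1.06 to 0.18), and neutrophil-gated cells held 3 and 2 UMIs, too few for a ratio. Barcodes with fewer than 100 UMIs, which hold cell-free RNA, had Ring1 at 15.3 and 12.3 CPM.

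By class and as counted, Ring1 CPM were highest in B-gated and next in T-gated cells in both libraries. B-gated and T-gated cells did not differ beyond counting error in the WT library, with log2 of B over T at 0.21 (-0.16 to 0.57), and did in the other, at 0.63 (0.32 to 0.95). As counted, the neighbours T, plasma and myeloid did not differ from each other beyond counting error in either library, and each was above the neutrophil gate. This order depends on the immunoglobulin UMIs in the denominator. Without them, Ring1 in plasma-gated cells was at 27.8 and 23.0 CPM, above the B-gated and T-gated cells. Those were at 17.1 and 16.3 CPM and at 14.7 and 10.4 CPM. Intervals between classes are not given on that scale.

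These ratios stand beside a background that was itself below 0. The median log2 ratio of all genes with at least 50 UMIs was -0.15 over all kept cells, -0.19 in B-gated, -0.32 in plasma-gated, -0.05 in T-gated, -0.09 in myeloid-gated and -0.22 in neutrophil-gated cells. Relative to the median of its class, Ring1 stood at 0.11 in B-gated, -0.23 in plasma-gated, -0.45 in T-gated and -0.29 in myeloid-gated cells, so its sign turned in B-gated cells. Immunoglobulin genes held 57.1% and 64.6% of the plasma-gated UMIs, which lowers the CPM of every other gene there. With these genes left out of the denominator, Ring1 in plasma-gated cells was at 27.8 and 23.0 CPM.

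Rnf2 was higher over all kept cells labelled Ring1AKO, and the difference was smaller at an equal class mix. There were 1374 and 1957 Rnf2 UMIs, or 22.2 and 28.4 CPM, a log2 ratio of 0.35 (0.25 to 0.45). B-gated cells, where Rnf2 was highest of the 5 classes in both libraries, made up 19.6% and 45.4% of kept cells. At the class mix of WT, which is by summed UMIs, the ratio was 0.19 (0.08 to 0.30). Plasma-gated cells held 18363482 and B-gated cells 6533595 of the 61864835 WT UMIs that set these weights. With each cell thinned to 2000 UMIs, the ratio at the WT class mix was 0.058, below that interval. Thinning also changes the weights, since each cell then holds 2000 UMIs. Thinned and without the weighting, the ratio was 0.27 (0.08 to 0.46). Cell-free barcodes held Rnf2 at 25.1 and 37.8 CPM.

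Within classes, Rnf2 as counted was higher beyond counting error in B-gated and myeloid-gated cells labelled Ring1AKO, and its interval held 0 in T-gated and plasma-gated cells. After thinning, with fewer UMIs, all 4 intervals held 0, with 0.16 (-0.15 to 0.50) in B-gated and 0.28 (-0.50 to 0.96) in myeloid-gated cells. Rnf2 was at 39.3 and 46.0 CPM (257 and 863 UMIs) in B-gated cells, a log2 ratio of 0.22 (0.02 to 0.43). Among B-gated cells with no UMI of the cycling genes Mki67 and Top2a the interval held 0, at 0.12 (-0.09 to 0.35). In myeloid-gated cells Rnf2 was at 19.3 and 28.1 CPM (189 and 96 UMIs), a ratio of 0.55 (0.17 to 0.90), the widest difference of the 4 larger classes. T-gated cells had 38.3 and 37.4 CPM (404 and 430 UMIs), a ratio of -0.04 (-0.23 to 0.16). Plasma-gated cells had 7.35 and 6.80 CPM (135 and 134 UMIs), a ratio of -0.11 (-0.47 to 0.24), and neutrophil-gated cells 12 and 13 UMIs. A 1.5-fold higher Rnf2 level, 0.58 on the log2 scale, lay above the intervals in B-gated, T-gated and plasma-gated cells and inside that in myeloid-gated cells. Centred on the median of all genes, the B interval was 0.41 (0.21 to 0.62), which holds it. On that scale Rnf2 stood at 0.41 in B-gated, 0.21 in plasma-gated, 0.01 in T-gated and 0.64 in myeloid-gated cells, so its sign turned in plasma-gated and T-gated cells, and it passed 1.5-fold in myeloid-gated cells.

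The classes ranked B, T, myeloid, neutrophil and plasma by Rnf2 CPM in both libraries. B-gated and T-gated cells did not differ beyond counting error in the WT library, with log2 of B over T at 0.04 (-0.19 to 0.27), while B-gated cells were higher in the other, at 0.30 (0.13 to 0.47). Myeloid-gated cells were below T-gated cells in both, with T over myeloid at 0.98 (0.73 to 1.24) and 0.40 (0.09 to 0.75). Myeloid and neutrophil gates did not differ beyond counting error in the WT library, nor plasma and neutrophil gates in either. Without immunoglobulin UMIs, Rnf2 in plasma-gated cells was at 17.1 and 19.2 CPM, above the 13.9 and 12.7 CPM of neutrophil-gated cells and still below the 39.9 and 46.8 CPM of B-gated cells.

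The UMI ratio of Rnf2 to Ring1 does not depend on a denominator. It was 2.34 and 2.87 in B-gated, 2.62 and 3.61 in T-gated and 1.70 and 3.31 in myeloid-gated cells. In plasma-gated cells it was 0.616 and 0.838, the only of these 4 classes with more Ring1 than Rnf2 UMIs. On the log2 scale the plasma ratio was -0.70 (-1.02 to -0.38) in the WT library and -0.26 (-0.60 to 0.08) in the other, where the interval holds equal counts. The log2 ratio was higher in the library labelled Ring1AKO by 0.46 (0.05 to 0.87) in T-gated and by 0.96 (0.24 to 1.70) in myeloid-gated cells. In B-gated cells the difference was 0.30 (-0.09 to 0.68) and in plasma-gated cells 0.44 (-0.03 to 0.91), and both intervals hold 0. In T-gated cells it came with fewer Ring1 UMIs at an Rnf2 level within counting error, and in myeloid-gated cells with a higher Rnf2 level. After thinning, log2 of Rnf2 over Ring1 was 1.61 and 1.72 in T-gated cells. In myeloid-gated cells 51 and 25 Rnf2 UMIs and 15 and 4 Ring1 UMIs were then left. The WT ratio of these lies above its interval as counted, 0.42 to 1.12, so the myeloid difference of 0.96 depends on depth. An interval of the difference after thinning is not given.

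Summed over both ligases, the level was 56.2 and 62.0 CPM in B-gated cells, a log2 ratio of 0.14 (-0.03 to 0.32). The sum in T-gated cells was 52.9 and 47.7 CPM, a ratio of -0.15 (-0.32 to 0.02), and in myeloid-gated cells 30.7 and 36.6 CPM, a ratio of 0.26 (-0.06 to 0.56). In plasma-gated cells it was 19.3 and 14.9 CPM, a ratio of -0.37 (-0.60 to -0.14), beside the median of -0.32 of all genes in that class. Without immunoglobulin UMIs the plasma interval held 0, at -0.09 (-0.32 to 0.14). Centred on the median of all genes, the sum was higher in B-gated (0.33, 0.16 to 0.50) and myeloid-gated cells (0.35, 0.03 to 0.65).

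**Figure D1:**
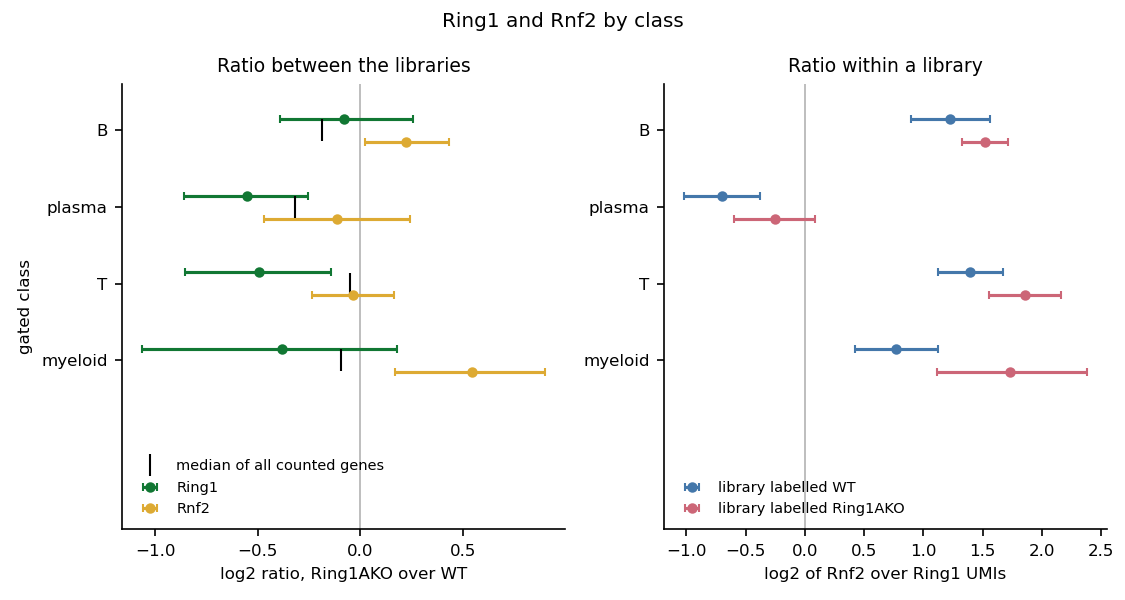
Left, the log2 ratio of Ring1AKO over WT for Ring1 (green) and Rnf2 (yellow) in 4 gated classes, with the median of all genes of at least 50 UMIs as a black tick. Right, log2 of Rnf2 over Ring1 UMIs within the WT library (blue) and the library labelled Ring1AKO (red). Bars are 95% intervals of counting error, and plasma-gated cells alone have points below 0 on the right.

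To compare cells of unequal depth, each cell with at least 2000 UMIs was thinned to 2000 UMIs, and shallower cells were left out. An Rnf2 UMI was then found in 8.23% and 9.48% of B-gated, 7.39% and 6.72% of T-gated and 4.86% and 5.88% of myeloid-gated cells. Before thinning the shares were 18.3% and 20.8%, 22.4% and 22.2% and 15.6% and 16.8%. A Ring1 UMI was found in 3.43% and 3.29% of thinned B-gated, 2.64% and 2.18% of T-gated and 1.52% and 0.980% of myeloid-gated cells, against 8.17% and 7.88%, 8.95% and 6.91% and 9.59% and 5.75% before. Rnf2 was thus found more often than Ring1 in these classes at equal depth. Thinned plasma-gated cells had Rnf2 in 1.95% and 1.73% and Ring1 in 1.95% and 1.39%, shares that the immunoglobulin UMIs lower. None of these classes is known to lack Rnf2. Ring1 is knocked out by label in 1 library, but a 3′ count does not show a deletion upstream of it. No background share could therefore be set for either gene.

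The PCGF genes were counted at unequal levels, and their order differed between classes. Pcgf5, whose complex holds AUTS2 or FBRS proteins, made up most of the PCGF UMIs in T-gated, myeloid-gated and neutrophil-gated cells and led in B-gated cells. Bmi1 led in plasma-gated cells of the WT library. Pcgf2, the paralog of Bmi1, was highest in T-gated cells among the 5 classes and had few UMIs in the others. Cells past no gate, which are outside these classes, held it at 6.42 and 8.25 CPM (60 and 61 UMIs), against 5.21 and 5.47 CPM in T-gated cells.

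In B-gated cells Pcgf5 was at 49.7 and 37.1 CPM (325 and 697 UMIs), Bmi1 at 24.3 and 23.4 CPM (159 and 439 UMIs) and Pcgf6 at 22.2 and 24.6 CPM (145 and 462 UMIs). Pcgf3 followed at 13.6 and 11.1 CPM (89 and 209 UMIs), Pcgf1 at 7.35 and 4.85 CPM (48 and 91 UMIs) and Pcgf2 at 0.306 and 0.959 CPM (2 and 18 UMIs). Bmi1 and Pcgf6 did not differ from each other beyond counting error in either library, and every other pair of neighbours in the order did. The Pcgf5 share of the PCGF UMIs was 42.3% (38.8 to 45.9) and 36.4% (34.2 to 38.6). The Pcgf6 share was 18.9% (16.2 to 21.8) and 24.1% (22.2 to 26.1). As counted, both pairs of intervals lay apart, with less Pcgf5 and more Pcgf6, a subunit of the complex with MGA and L3MBTL2, in the library labelled Ring1AKO. At equal depth they overlapped, with Pcgf5 at 40.7% (35.0 to 46.6) and 37.8% (34.2 to 41.4) and Pcgf6 with 58 of 290 UMIs (15.6 to 25.1%) and 151 of 728 (17.9 to 23.9%).

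In plasma-gated cells Bmi1 was at 17.9 and 12.4 CPM (328 and 245 UMIs) and Pcgf5 at 13.7 and 13.1 CPM (251 and 258 UMIs). Bmi1 was above Pcgf5 beyond counting error in the WT library and not in the other. Pcgf3 was at 4.57 and 1.78 CPM (84 and 35 UMIs), Pcgf6 at 3.98 and 4.47 CPM (73 and 88 UMIs), Pcgf1 at 1.74 and 1.73 CPM (32 and 34 UMIs) and Pcgf2 at 0.762 and 0.711 CPM (14 and 14 UMIs). The Bmi1 share was 41.9% (38.5 to 45.5) and 36.4% (32.7 to 40.1), and these intervals overlap, which does not show that the shares were equal. The Pcgf3 share was 10.7% (8.66 to 13.1) and 5.19% (3.64 to 7.15), which lay apart as counted and overlapped after thinning, when 9 and 4 Pcgf3 UMIs were left. Pcgf3 did not differ beyond counting error from Pcgf6 in the WT library or from Pcgf1 in the other.

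T-gated cells held the highest PCGF sum of the 5 classes, at 153 and 131 CPM, while cells past no gate were at 156 and 149 CPM. Pcgf5 was at 91.1 and 74.1 CPM (962 and 853 UMIs), a share of 59.4% (57.0 to 61.8) and 56.7% (54.2 to 59.2). Bmi1 had 211 UMIs in each library, Pcgf6 was at 16.5 and 13.7 CPM (174 and 158 UMIs) and Pcgf3 at 16.0 and 14.1 CPM (169 and 162 UMIs). Neighbours among these 3 did not differ beyond counting error, save Bmi1 over Pcgf3 in the library labelled Ring1AKO. Pcgf2 was at 5.21 and 5.47 CPM (55 and 63 UMIs), a share of 3.40% (2.57 to 4.40) and 4.19% (3.23 to 5.33), and Pcgf1 at 4.55 and 4.95 CPM (48 and 57 UMIs), a pair that did not differ beyond counting error. Log2 of Pcgf2 in B-gated over T-gated cells was -3.53 (-7.17 to -2.17) in the WT library and -2.46 (-3.36 to -1.74) in the other. All 6 shares in T-gated cells had intervals that overlapped between the libraries.

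In myeloid-gated cells the Pcgf5 share was the highest of the 4 larger classes, 77.4% (74.9 to 79.7) and 70.3% (64.5 to 75.7), with Pcgf5 at 96.3 and 56.2 CPM (941 and 192 UMIs). Pcgf3 was at 14.7 and 8.78 CPM (144 and 30 UMIs), Bmi1 at 5.53 and 7.61 CPM (54 and 26 UMIs) and Pcgf1 at 5.22 and 3.51 CPM (51 and 12 UMIs), while Pcgf6 had 19 and 10 UMIs and Pcgf2 had 7 and 3. The Bmi1 share was 4.44% (3.35 to 5.75) and 9.52% (6.32 to 13.6), with intervals that lay apart, also after thinning to 6 and 9 Bmi1 UMIs. Bmi1 and Pcgf1 did not differ beyond counting error in the WT library, nor Bmi1 and Pcgf3, or Pcgf6 and its neighbours Pcgf1 and Pcgf2, in the other. In neutrophil-gated cells Pcgf5 had 28 of 38 and 13 of 16 PCGF UMIs, a share of 73.7% (56.9 to 86.6) and 81.2% (54.4 to 96.0). The other PCGF genes had 0 to 4 UMIs each there, so no order among them can be read.

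Bmi1, Pcgf2 and Pcgf6 were lower in the myeloid gate than in the T gate of the same library. Log2 of T over myeloid was 1.84 (1.42 to 2.31) and 1.22 (0.68 to 1.92) for Bmi1, 2.70 (1.72 to 4.24) and 2.25 (1.03 to 4.96) for Pcgf2, and 3.02 (2.40 to 3.85) and 2.10 (1.31 to 3.32) for Pcgf6. Pcgf5 did not differ between these gates beyond counting error in the WT library (-0.08, -0.21 to 0.05) and was higher in T-gated cells of the other (0.39, 0.17 to 0.63). A 3′ UMI counts a transcript once whatever its length, so the shares above are not scaled by length. Divided by the longest annotated transcript (918 bases for Pcgf1, 7708 for Pcgf3 and 6443 for Pcgf5), Pcgf5 still led in T-gated, myeloid-gated and neutrophil-gated cells, and Bmi1 led in plasma-gated cells of both libraries. The order in B-gated cells then changed, to Pcgf1 with 24.8% of the counts per length, Pcgf6 with 24.3% and Pcgf5 with 24.0% in the WT library, and to Pcgf6 first in the other, with 31.0%.

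**Figure D2:**
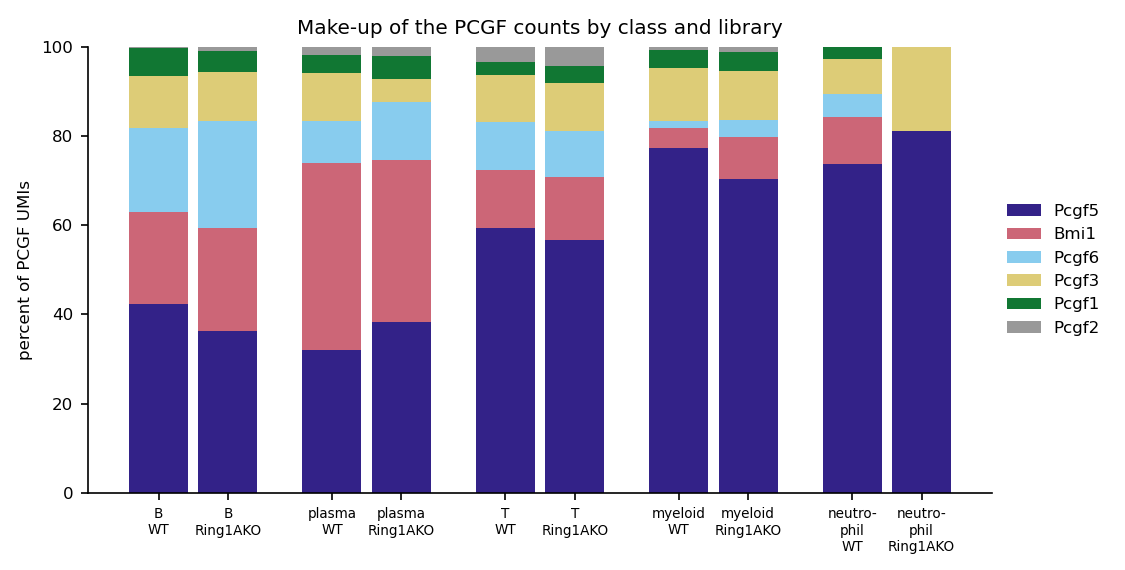
Share of each PCGF gene in the summed PCGF UMIs (percent, stacked to 100) for each gated class and library. Pcgf5 (dark blue) fills most of the T, myeloid and neutrophil bars, and Bmi1 (red) is the largest part in plasma-gated cells of the WT library.

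RYBP and YAF2 bind the RING ligase of variant PRC1 where canonical PRC1 holds CBX. In UMIs, Rybp was above Yaf2 in each class and library. In myeloid-gated cells Rybp had 974 and 321 UMIs, a log2 ratio of -0.08 (-0.27 to 0.10), while Yaf2 was at 9.31 and 13.2 CPM (91 and 45 UMIs), a ratio of 0.52 (-0.05 to 1.03). Rybp made up 91.5% (89.6 to 93.1) and 87.7% (83.9 to 90.9) of both adaptors there. In neutrophil-gated cells Rybp, at 132 and 78.2 CPM (114 and 80 UMIs), was the most counted of the 10 genes, with a share of 92.7% (86.6 to 96.6) and 88.9% (80.5 to 94.5).

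In lymphocytes the adaptors were closer, and Yaf2 took a larger part in the library labelled Ring1AKO. In B-gated cells Rybp was at 50.8 and 36.3 CPM (332 and 681 UMIs), a log2 ratio of -0.49 (-0.68 to -0.29), and Yaf2 at 24.9 and 27.1 CPM (163 and 509 UMIs), a ratio of 0.11 (-0.14 to 0.38). The Rybp share was 67.1% (62.7 to 71.2) and 57.2% (54.4 to 60.1). In T-gated cells Rybp was at 58.6 and 43.9 CPM (618 and 505 UMIs), a ratio of -0.42 (-0.59 to -0.24), and Yaf2 at 34.4 and 40.1 CPM (363 and 461 UMIs), a ratio of 0.22 (0.02 to 0.42). The share in T-gated cells was 63.0% (59.9 to 66.0) and 52.3% (49.1 to 55.5), so the intervals lay apart in both lymphocyte classes. After thinning, the shares in B-gated cells were 68.0% (60.5 to 74.8) and 59.8% (55.2 to 64.2), of 175 and 482 UMIs. Those in T-gated cells were 67.3% (61.7 to 72.6) and 57.7% (51.6 to 63.6), of 300 and 274 UMIs. With these fewer UMIs both pairs of intervals overlapped, which does not show that the shares were equal. The Yaf2 interval in T-gated cells held 0 after thinning, at 0.16 (-0.24 to 0.56). In plasma-gated cells Rybp was at 13.5 and 7.87 CPM (248 and 155 UMIs) and Yaf2 at 7.84 and 5.79 CPM (144 and 114 UMIs), and the share was 63.3% (58.3 to 68.0) and 57.6% (51.5 to 63.6), with overlapping intervals. Divided by transcript length, Rybp held under 50% in B-gated, T-gated and plasma-gated cells of both libraries.

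**Figure D3:**
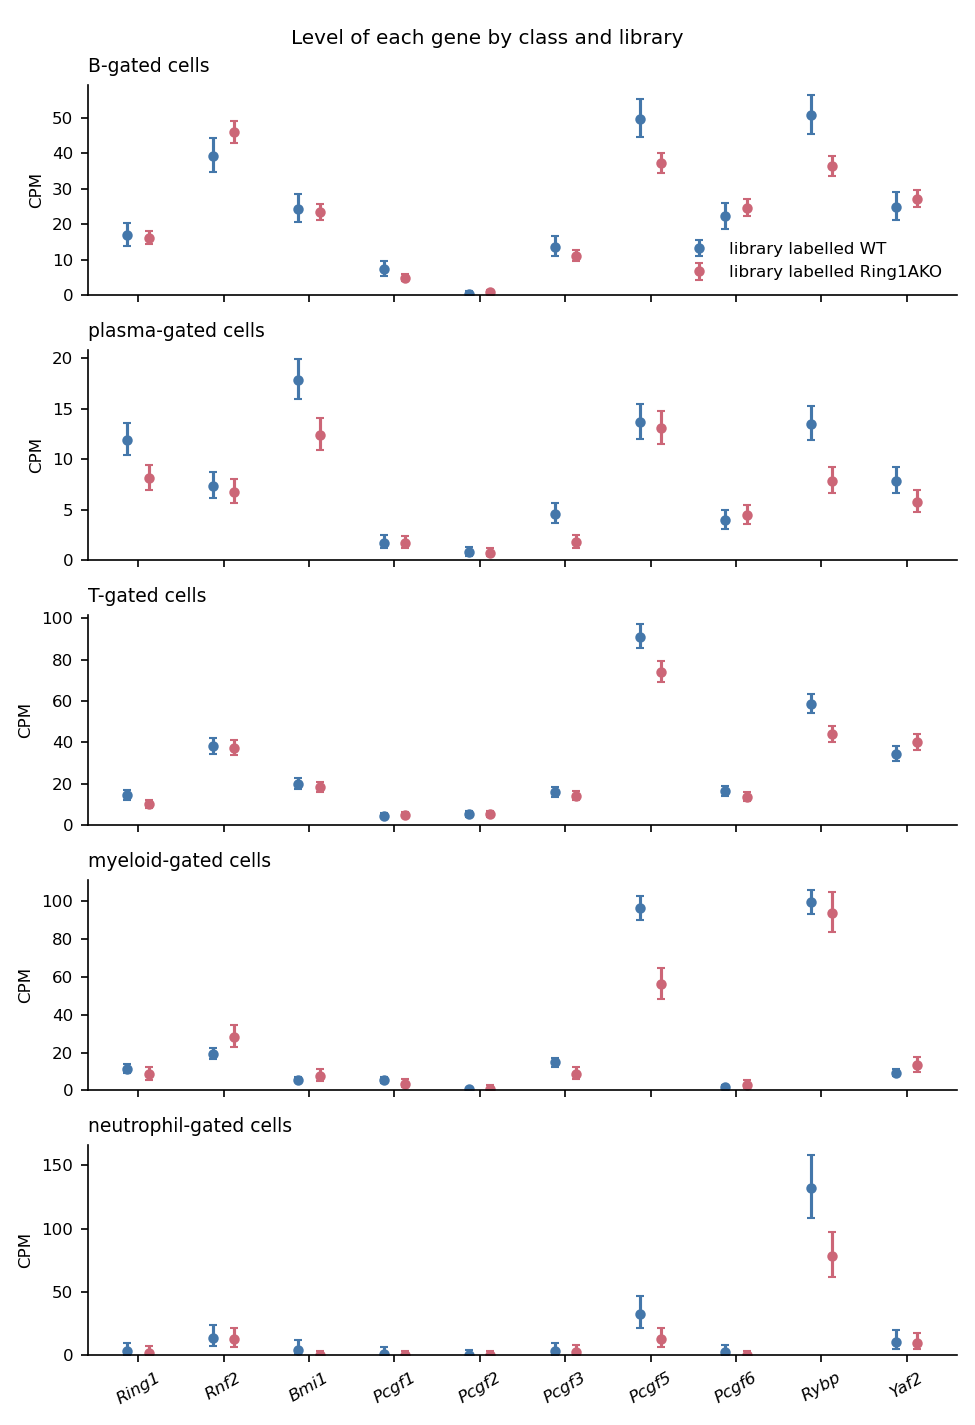
Level of the 10 genes in CPM (each panel has its own axis from 0) by gated class, in the WT library (blue) and the library labelled Ring1AKO (red), with exact 95% Poisson intervals. Pcgf5 and Rybp are the highest points in T-gated and myeloid-gated cells, and Bmi1 is the highest in plasma-gated cells of the WT library.

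Few of the 10 genes differed by 1.5-fold or more between the libraries, and each that did was lower in the library labelled Ring1AKO. Over all kept cells 0 of 10 passed that fold, while 19.0% of 13797 genes with at least 50 UMIs were lower and 3.97% higher by as much. In B-gated cells 1 of the 9 genes with enough UMIs was lower, Pcgf1 with -0.61 (-1.12 to -0.06), or -0.43 (-0.93 to 0.12) relative to the median of all genes, against 18.0% of all genes lower and 3.11% higher. In T-gated cells 0 of 10 passed, against 10.6% and 4.51%. With 9 or 10 genes, these counts do not set the members apart from the background.

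In plasma-gated cells 2 of 9 were lower, Pcgf3 with -1.34 (-1.98 to -0.78) and Rybp with -0.78 (-1.08 to -0.48), which had 9 and 13 UMIs and 0.58 (-0.72 to 2.03) after thinning, against 27.0% of all genes lower and 2.22% higher. In myeloid-gated cells 2 of 8 were lower, Pcgf3 with -0.71 (-1.37 to -0.17) and Pcgf5 with -0.77 (-1.01 to -0.55), against 13.7% and 7.82%. In neutrophil-gated cells Rybp alone had enough UMIs and was lower, with -0.75 (-1.18 to -0.33), against 26.4% and 7.08%. The members' median log2 ratio was -0.08 in B-gated, -0.44 in plasma-gated, -0.16 in T-gated and -0.23 in myeloid-gated cells, beside medians of all genes of -0.19, -0.32, -0.05 and -0.09. Relative to the median, 4 members passed the fold in myeloid-gated cells, with Rnf2 (0.64) and Yaf2 (0.61) higher, and Pcgf6 (0.59) passed it over all kept cells. Thinned and not centred, Pcgf6 over all kept cells was at 0.10 (-0.19 to 0.41). Pcgf6 was highest in B-gated cells, which made up 19.6% and 45.4% of kept cells, and its ratio at an equal class mix is not given. The share of all genes past the fold when centred is not given, so the centred counts cannot be set against a background.

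Pcgf5 was lower beyond counting error in 3 of the 4 larger classes, also when centred, without immunoglobulin UMIs or thinned. The share of all genes lower beyond counting error is not given, so this count does not set Pcgf5 apart from other genes. The log2 ratio of Pcgf5 was -0.42 (-0.61 to -0.23) in B-gated, -0.30 (-0.43 to -0.16) in T-gated and -0.77 in myeloid-gated cells, and -0.06 (-0.32 to 0.19) in plasma-gated cells. Relative to the median of all genes these were -0.24, -0.25, -0.68 and 0.26 (0.00 to 0.51), the last with its sign turned. Bmi1 was lower beyond counting error in plasma-gated cells as counted, with -0.52 (-0.77 to -0.28). That interval held 0 relative to the median of all genes, at -0.20 (-0.45 to 0.04), and reached 0.00 without immunoglobulin UMIs, at -0.24 (-0.49 to 0.00). The Bmi1 interval held 0 in B-gated (-0.06), T-gated (-0.12) and myeloid-gated cells (0.49, -0.27 to 1.16). The intervals of Pcgf6 held 0 in B-gated (0.14), plasma-gated (0.16) and T-gated cells (-0.26). Centred, Pcgf6 was higher in B-gated (0.33, 0.06 to 0.62) and plasma-gated cells (0.48, 0.02 to 0.96), and thinned it was lower in T-gated cells (-0.94, -1.64 to -0.31) and turned to -0.24 (-0.67 to 0.24) in B-gated cells. Pcgf2 passed 50 UMIs in 1 of these classes, the T gate, where it was 0.07 (-0.47 to 0.62). The PCGF genes summed were lower beyond counting error as counted, with -0.20 (-0.32 to -0.08) in B-gated, -0.32 (-0.47 to -0.17) in plasma-gated, -0.23 (-0.33 to -0.13) in T-gated and -0.63 (-0.83 to -0.45) in myeloid-gated cells. Centring left the sum lower in T-gated (-0.18, -0.28 to -0.08) and myeloid-gated cells (-0.54, -0.74 to -0.35), and its interval held 0 in B-gated and plasma-gated cells. Pcgf5 is a large part of these sums. It held 49.7 and 37.1 of 118 and 102 CPM in B-gated and 91.1 and 74.1 of 153 and 131 CPM in T-gated cells. In myeloid-gated cells it held 96.3 and 56.2 of 124 and 79.9 CPM, and in plasma-gated cells 13.7 and 13.1 of 42.6 and 34.2 CPM.

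**Figure D4:**
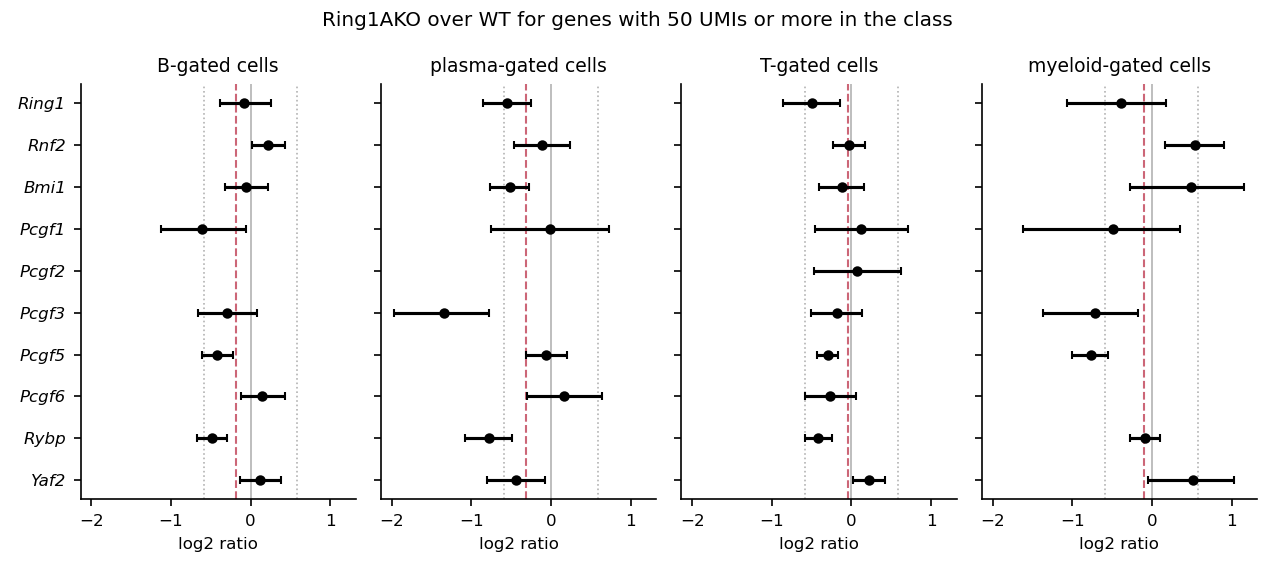
Log2 ratio of Ring1AKO over WT for each member with at least 50 UMIs in the class, with exact 95% intervals of counting error. The dashed red line is the median of all genes in that class, and dotted lines mark 1.5-fold. Points left of the lower dotted line are Pcgf1 in B-gated, Pcgf3 and Rybp in plasma-gated, and Pcgf3 and Pcgf5 in myeloid-gated cells.

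Pcgf5 was lower on both sides of a split of the myeloid gate by C1q. In cells with a C1qa or C1qb UMI, 352 and 232, Pcgf5 was at 104 and 56.2 CPM, a log2 ratio of -0.87 (-1.26 to -0.52). In cells without, 701 and 220, it was at 92.8 and 56.2 CPM, a ratio of -0.71 (-1.03 to -0.43). Rnf2 had a ratio of 0.72 (0.13 to 1.28) in the C1q-positive cells and of 0.41 (-0.11 to 0.87), an interval that holds 0, in the others. Pcgf3 had -0.22 (-1.17 to 0.56) and -1.10 (-2.15 to -0.35), and Yaf2 had 0.01 (-1.11 to 0.94) and 0.81 (0.13 to 1.43), so both differed beyond counting error in the C1q-negative cells only. The difference between the sides was not tested.

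T-gated cells were split by their coreceptor genes. Pcgf5 was at 87.2 and 59.0 CPM in cells with a Cd8a or Cd8b1 UMI, a log2 ratio of -0.56 (-0.80 to -0.33). It was at 89.9 and 76.7 CPM in cells with Cd4 and no Cd8, a ratio of -0.23 (-0.46 to 0.00), and at 98.3 and 92.9 CPM in cells with neither, a ratio of -0.08 (-0.32 to 0.16). The intervals of the Cd8 cells and of the cells with neither just failed to overlap. Ring1 had a ratio of -0.15 (-0.76 to 0.47) in Cd8 cells, -0.62 (-1.24 to -0.05) in Cd4 cells and -0.72 (-1.45 to -0.04) in cells with neither. Pcgf2 was at 3.50 and 4.20 CPM, 5.70 and 6.20 CPM and 6.97 and 6.43 CPM in the same order, values that rest on 14 to 24 UMIs each.

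Cycling cells, those with a UMI of Mki67 or Top2a, were compared with the other cells of the same class and library. Of 40 pairs of a member and a class, 6 had intervals on the same side of 0 in both libraries. The same share over all genes is not given, and these ratios are not centred on a median of all genes. The count therefore does not set the members apart from other genes. Rnf2 was lower in cycling B-gated cells, at 21.4 against 44.9 CPM in the WT library (-1.03, -1.64 to -0.53) and 26.3 against 48.9 CPM in the other (-0.87, -1.29 to -0.53). It was also lower in cycling T-gated cells, with -0.48 (-0.81 to -0.17) and -0.44 (-0.77 to -0.13). Rybp was lower in cycling T-gated cells, with -0.39 (-0.65 to -0.14) and -0.64 (-0.96 to -0.35), and Pcgf3 in cycling B-gated cells, with -1.02 (-2.19 to -0.21) and -0.68 (-1.56 to -0.03). Yaf2 was higher in cycling B-gated cells, with 0.81 (0.31 to 1.28) and 0.48 (0.12 to 0.80), and Pcgf5 in cycling plasma-gated cells, with 0.56 (0.19 to 0.93) and 0.66 (0.27 to 1.03). The plasma-gated values keep immunoglobulin UMIs in the denominator. Ratios without them are not given for this split, so their part in the Pcgf5 difference was not tested.

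Pcgf2 had 10 UMIs in the 218 cycling B-gated cells labelled Ring1AKO and 8 in the 3375 others, a log2 ratio of 3.04 (1.58 to 4.61). These UMIs are fewer than the floor set for counted genes. The Pcgf2 share of the PCGF UMIs in B-gated cells labelled Ring1AKO was 0.939%. It was 0.436% without the cells above the 95th percentile of UMIs, 0.471% as a mean over cells and 0.412% (3 UMIs) after thinning. The cycling ratio under these settings is not given, so it may rest on a few deep cells. The WT library held 0 Pcgf2 UMIs in cycling B-gated cells and 2 in the others. Cells with a Mki67 or Top2a UMI made up 10.1% and 6.07% of B-gated, 40.9% and 22.0% of plasma-gated, 25.5% and 21.1% of T-gated and 23.2% and 27.9% of myeloid-gated cells. These shares are not at equal depth. Median UMIs were 27246 and 32879 in plasma-gated against 4220 and 4345 in B-gated cells. A single UMI is found more easily in a deep cell, so the shares do not compare division between classes. Without the cycling cells, the ratios of Ring1AKO over WT in plasma-gated cells were -1.32 (-2.15 to -0.58) for Pcgf3, -0.54 (-0.85 to -0.23) for Bmi1 and -0.62 for Rybp. In B-gated cells they were -0.52 (-0.73 to -0.31) for Pcgf5 and -0.82 (-1.39 to -0.21) for Pcgf1. Each had the direction it had in the whole class.

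**Figure D5:**
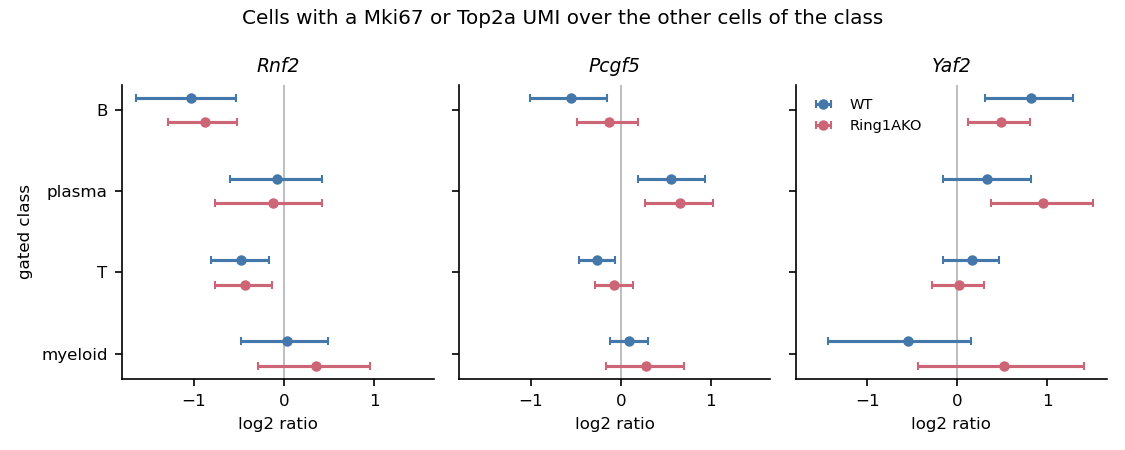
Log2 ratio of the CPM in cells with a Mki67 or Top2a UMI over the other cells of the same class, for Rnf2, Pcgf5 and Yaf2, in the WT library (blue) and the library labelled Ring1AKO (red), with 95% intervals of counting error. Rnf2 lies left of 0 in B-gated and T-gated cells, and Pcgf5 lies right of 0 in plasma-gated cells, in both libraries. Immunoglobulin UMIs are in the denominator.

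The proteins that define each variant complex, and the enzymes that remove ubiquitin from H2A, were followed as a list of 27 genes. Over all kept cells 1 of 27 was lower by 1.5-fold or more, E2f6, a DNA-binding partner of PCGF6, at 4.19 and 2.71 CPM, with -0.63 (-0.91 to -0.35), and 0 were higher, beside 19.0% of all genes lower. In B-gated cells 2 of 25 were lower, beside 18.0%, in T-gated cells 4 of 27, beside 10.6%, and in plasma-gated cells 10 of 26, beside 27.0%, and 0 were higher in each. In myeloid-gated cells 1 of 23 was lower and 2 were higher, beside 13.7% and 7.82%, and in neutrophil-gated cells 1 of 5 and 2, beside 26.4% and 7.08%. After centring, 0 partners passed the fold over all kept cells and in B-gated cells, and 2 passed it in plasma-gated cells, both lower. In T-gated cells 1 was lower and 1 higher. Myeloid-gated and neutrophil-gated cells each had 1 lower and 2 higher. The share of all genes past the fold after centring is not given, so these centred counts have no background beside them.

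Of these partners, 4 were lower by that fold in more than 1 class. How many of all genes were lower in more than 1 class is not given, so this count does not set the 4 apart. E2f6 had -0.70 (-1.36 to 0.03) in B-gated, -0.88 (-1.64 to -0.19) in plasma-gated and -0.69 (-1.21 to -0.20) in T-gated cells. Asxl2, a cofactor of the deubiquitinase BAP1, had -0.68 in plasma-gated, -0.62 (-0.77 to -0.47) in T-gated and -0.93 (-1.40 to -0.53) in myeloid-gated cells. Usp16, a deubiquitinase of H2A, had -0.73 in plasma-gated, -0.62 (-0.77 to -0.47) in T-gated and -1.87 (-2.75 to -1.16) in neutrophil-gated cells. Bcorl1, a PCGF1 partner, had -0.82 in plasma-gated and -0.60 (-1.05 to -0.16) in T-gated cells. Relative to the class median, E2f6 passed the fold in T-gated (-0.64), Asxl2 in myeloid-gated (-0.84) and Usp16 in neutrophil-gated cells (-1.65). Of the 5 genes of H2A deubiquitination, 4 were lower in plasma-gated cells, beside 27.0% of all genes, and 2 in T-gated cells, beside 10.6%, or 2 and 0 relative to the median. In myeloid-gated cells the PCGF1 partners Kdm2b, at 11.3 and 24.3 CPM (1.11, 0.68 to 1.53), and Bcor, at 27.4 and 44.5 CPM (0.70, 0.40 to 0.99), were higher, with Pcgf1 itself at 5.22 and 3.51 CPM (-0.48, -1.61 to 0.36). As counted, Bcor was lower in plasma-gated (-0.70, -1.03 to -0.37) and B-gated cells (-0.42, -0.67 to -0.17). Relative to the class median it stood at -0.38 and -0.24. Kdm2b had -0.36 and -0.20 as counted in these classes, near the medians of all genes, and stood at -0.04 and -0.01 relative to them. Kdm2b was at 268 and 252 CPM in T-gated cells, and immunoglobulin genes held 0.510% and 0.769% of the myeloid-gated UMIs. The part of RNA from other cells in these values was not tested.

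The genes most like each ligase and Bmi1 over the 10 points of class and library were sought among 8678 genes, by Pearson's r of log2(CPM + 1). This is a description, since points of a library share their depth and the genes named are the highest of all those searched. The neutrophil points also rest on few UMIs, 3 and 2 for Ring1, 12 and 13 for Rnf2 and 4 and 0 for Bmi1. How far these low points set the r values was not tested. Ring1 was most like Eif2b4 (r = 0.990), Hibadh (0.989) and Abce1 (0.987). Rnf2 was most like Gclc (0.992), Sf1 (0.991) and Pcif1 (0.985), and Bmi1 most like Zfp637 (0.981), Rcbtb1 (0.979) and Lsm2 (0.975). Among the members, Ring1 was closest to Bmi1 (r = 0.905) and Rnf2 to Yaf2 (0.908), while Ring1 and Rnf2 had r = 0.506 with each other.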

How the data were processed

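The authors sorted the cells, made 10x Genomics 3′ libraries and counted UMIs per gene and barcode. The deposited matrices held raw UMI counts, neither filtered for cells nor normalized. The submitters' processing notes name Cell Ranger 6.0.2, the header of the matrices names Cell Ranger 4, and the sources differ on the genome build. Coordinates here come from GENCODE vM21 on GRCm38, which held 32150 of the 32228 gene IDs. Members and lists were chosen with earlier results of these data known.

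The gates were S100a8 at 1% of UMIs or more, Jchain at 0.5% or more, at least 2 UMIs of Cd79a, at least 1 of Cd3e, or Lyz2 at 0.1% or more with at least 2 UMIs. Cells past the S100a8 gate could also pass that of Lyz2, and cells past the Jchain gate that of Cd79a. Barcodes past other combinations (293 and 454), which can be doublets, and past no gate (1171 and 978) were left out of the classes, and no doublet caller was run.

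UMIs were summed per class and library with pandas 2.3.3 and numpy 2.4.6 under Python 3.11.15, intervals were computed with scipy 1.17.1 and plots drawn with matplotlib 3.10.9. Intervals are exact: Poisson for CPM, Clopper-Pearson for shares and conditional on the counts for ratios and for the change of the Rnf2 to Ring1 ratio. The exception is a normal interval on the log scale at the WT class mix. With 1 library per group no test was made. Genes counted as differing were past 1.5-fold with at least 50 UMIs in the class. Partners named were past that fold in the same direction in more than 1 class. Kdm2b and Bcor in myeloid-gated cells, and the splits by C1q, coreceptor and cycling, were chosen after values were seen. The 3 genes of highest r were named for Ring1, Rnf2 and Bmi1. The ratio was tested on simulated data. Results were recomputed under 16 other choices of filters, gates, denominators, scaling and depth, and for 3 splits of the cells chosen after values were seen, as were the intervals under other scalings and after thinning.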

Additional observations from a re-analysis of the deposited data

How the results depend on the processing

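Of 1972 values recomputed, 668 equalled the reported one, and a setting that leaves the counts behind a value alone cannot change it. Of the 1304 others, 138 moved beyond their counting interval or count. Ratios left with under 50 UMIs by a setting were not among them. No paired analysis was possible because there was 1 library of WT and 1 of Ring1AKO. Division by transcript length moved most of these shares. The Pcgf5 share became 24.0% and 20.5% in B-gated, 40.8% and 37.3% in T-gated, 59.7% and 50.7% in myeloid-gated, 21.5% in plasma-gated cells labelled Ring1AKO and 56.9% in neutrophil-gated WT cells. The Rybp share became 45.8% and 35.7% in B-gated, 41.7% and 36.1% in plasma-gated, 41.4% and 31.3% in T-gated, 81.6% and 74.8% in myeloid-gated and 84.0% and 76.9% in neutrophil-gated cells. Thinning to 2000 UMIs, which leaves few UMIs per member, gave a Ring1 ratio of 0.071 over all kept cells, an Rnf2 ratio of 0.058 at the WT class mix and log2 of Rnf2 over Ring1 of 1.77 in myeloid-gated WT cells. The Rybp share was then 67.3% and 57.7% in T-gated, 47.4% in plasma-gated WT and 93.1% in myeloid-gated WT cells, that of Pcgf5 in neutrophil-gated cells labelled Ring1AKO 100%, and that of Bmi1 in plasma-gated WT cells 37.9%.

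Ratios centred on the median of all genes gave 0.50 for Rnf2 and -0.033 for Ring1 over all kept cells, and -0.23 for Ring1 in plasma-gated cells. Subtracting the cell-free profile at 5% gave log2 of Rnf2 over Ring1 of -0.61 in plasma-gated cells labelled Ring1AKO. The Rybp share in T-gated cells labelled Ring1AKO was 55.9% without the cells above the 95th percentile of UMIs and 56.5% as a mean over cells, and that in myeloid-gated cells labelled Ring1AKO 91.2% under stricter gates. Looser gates gave a Pcgf5 share of 39.1% in B-gated cells labelled Ring1AKO, and assigning the barcodes past several gates a Bmi1 share of 37.5% in plasma-gated WT cells.

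The counts of members past 1.5-fold are small and moved easily. Over all kept cells the count was 1 when centred and 1 when thinned. In B-gated cells it was 2 with features of 20 UMIs counted, and 0 when thinned, when centred, with features of 200 UMIs, with a mitochondrial limit of 10%, with barcodes past several gates assigned, or without ribosomal and mitochondrial genes. In plasma-gated cells it was 0 when thinned and 1 when centred, with features of 200 UMIs or without immunoglobulin genes. In T-gated cells it was 1 when thinned, under looser gates or as a mean over cells. In myeloid-gated cells it was 4 when centred, and 1 when thinned or with features of 200 UMIs. In neutrophil-gated cells it was 2 with features of 20 UMIs or assigned barcodes, and 0 when centred, under looser gates, as a mean over cells or with features of 200 UMIs. The cause of these moves was not tested, apart from the UMIs or genes that each setting itself leaves out. The splits by C1q, coreceptor and cycling were chosen after seeing the data. With 1 library per genotype, no spread between mice enters any interval.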
